A study of Homo sapiens with 6 samples.

Results

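Cytosolic ribosomal protein genes encode the proteins of the large (RPL) and small (RPS) subunit of the ribosome outside mitochondria. They were taken by symbol from the annotation of the Affymetrix Human Gene 2.0 ST array, leaving out pseudogenes, ribosomal S6 kinases and genes of the Y chromosome, and a gene with several transcript clusters (the array's unit of measurement) was represented by the one with the highest mean signal. This gave 52 genes of the 14884 with a symbol, 34 of the large and 18 of the small subunit, of which 7 are paralogs of another ribosomal protein gene. RefSeq lists 84 protein-coding genes that match the same rule, and the other 32, among them RPL3, RPL5, RPLP0, RPS2 and RPSA, had no transcript cluster named here and were not analysed. The cells were MDA-MB-231, a human breast cancer line with mesenchymal features, in 3 Control and 3 SAM cultures, which the study describes as 3 independent experiments. SAM (S-adenosylmethionine) is the methyl donor of most cellular methylation reactions and was added to the growth medium at 200 μM every other day from day 2, a dose and schedule that the study's text gives. The labels call the Control cells untreated, whereas that text also speaks of vehicle-treated control cells. One cell line, passaged as a culture, is the only model here.

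A ribosome contains 1 copy of nearly every one of these proteins, so their genes are transcribed strongly and in balance in growing cells. Their mRNAs typically begin with a C and a run of pyrimidines, the terminal oligopyrimidine (TOP) tract, through which mTORC1 and the RNA-binding protein LARP1 control how well they are translated. Such control acts on translation and can leave the mRNA level as it was, and an expression array reads the mRNA level alone. The values were normalized to a shared distribution, which removes a shift common to all RNA, and the RNA came from whole cultures, in which fewer cells of a kind and less RNA per cell cannot be told apart.

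The 30 bases around an annotated transcription start are shown for RPS24 and genes described below, 15 before and 15 from the start. The start base and the unbroken run of C and T that follows it are in capitals. For a gene with several annotated starts, such as RPL10 with 3, the start with the longest such run was taken. Where the first base is not a C, that base alone is in capitals. RPS14, RPL10, RPS18 and RPS24 carry the tract and span differences between SAM and Control from negative (RPS14, RPL10) to positive (RPS18). RPS24, the member closest to 0 (log2 difference -0.0043, SE 0.13), was added after its value was seen. The rest set a paralog beside its parent gene. The sequences are from RefSeq, build GRCh38.p14, 5′ to 3′ on the strand of the gene.
RPS14, chr5:150449725-150449754, minus strand: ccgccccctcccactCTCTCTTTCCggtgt
RPL10, chrX:154398362-154398391, plus strand: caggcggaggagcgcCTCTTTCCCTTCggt
RPS18, chr6:33272060-33272089, plus strand: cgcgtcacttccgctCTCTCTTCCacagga
RPS24, chr10:78033848-78033877, plus strand: cggcgaatcgtggttCTCTTTTCCTCCTTg
RPL22, chr1:6199581-6199610, minus strand: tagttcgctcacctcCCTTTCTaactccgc
RPL22L1, chr3:170870181-170870210, minus strand: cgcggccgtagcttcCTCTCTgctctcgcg
RPS27, chr1:153990747-153990776, plus strand: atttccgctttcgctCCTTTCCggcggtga
RPS27L, chr15:63157463-63157492, minus strand: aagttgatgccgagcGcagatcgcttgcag
RPL26, chr17:8383179-8383208, minus strand: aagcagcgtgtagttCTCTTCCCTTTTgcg
RPL26L1, chr5:172958714-172958743, plus strand: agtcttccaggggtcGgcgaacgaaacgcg

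A C at an annotated start followed by at least 4 bases that are each C or T, read on the strand of the gene only, was found in 31 of the 47 members that have an entry among the RefSeq promoters (66.0%), against 1404 of all 27305 genes with an entry (5.14%). Among the paralogs 1 of 5 carried it, RPL22L1. The tract was 5 to 19 bases long, with a median of 8 and the longest in RPL39, taking the longest of a gene with several starts. A start without these letters says only that they are not at the annotated position.

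The series as a whole gave few and weak differences. The median log2 signal of the arrays was 4.75 to 4.85, and of all 53617 transcript clusters 582 passed the thresholds of the study's methods (an unadjusted P under 0.01 and a fold change over 1.5), with none (0) at an adjusted p under 0.05 in limma, where 4285 had an unadjusted P under 0.05. VIM, CD44, AXL and MSN, markers of mesenchymal-like breast cancer lines, had log2 signals of 7.58 to 11.61 and the luminal hormone receptor genes ESR1 and PGR of 3.54 to 5.37. Markers of either kind differed in both directions. KRT19, a luminal keratin gene, was at 8.21 to 8.59 in Control and 7.86 to 7.92 in SAM, whereas ESR1 was at 4.80 to 5.01 and 5.12 to 5.37. CD44 was at 7.58 to 7.85 in Control and 7.95 to 8.22 in SAM, whereas VIM was at 9.31 to 9.57 and 9.10 to 9.25. The part of such differences in the values below was not tested. Of the leukocyte, endothelial and fibroblast markers, 5 of 10 had a transcript cluster named here (signals of 2.62 to 6.77), and none (0) of the 5 passed the thresholds.

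None (0) of the 52 cytosolic ribosomal protein genes passed both of these thresholds between SAM and Control, where 1.09% of all transcript clusters did (0.464% higher, 0.621% lower). At an unadjusted P under 0.05 in limma, 1 member was lower, RPS15A, and none (0) higher. This is 1.92% of the members, against 7.99% of all transcript clusters. The groups did not overlap in 2 members (3.85%), against 15.1% of all transcript clusters. These were RPS27L, higher in SAM as in 7.12% of all transcript clusters, and RPS15A, lower as in 7.95%. For a single gene 3 arrays against 3 cannot give an exact two-sided permutation p below 0.1. The log2 difference, SAM minus Control, lay between -0.47 and 0.41, with a median of -0.02 beside a median of -0.00313 over all transcript clusters.

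The intervals say how large a change these arrays could have missed. In 41 of the 52 members the whole 95% interval of the difference from limma lay within a 1.5-fold change in either direction, as it did in 54.8% of all transcript clusters and 65.3% of genes with a symbol. The interval reached a median of 0.31 to either side of the estimate on the log2 scale. In 34 of the 52 the difference was under 0.1 in size (65.4%), against 37.6% of genes with a symbol. The median SD between arrays of a group was 0.12 for the members and 0.17 for genes with a symbol, and the members had a higher median log2 signal (7.13 against 5.72).

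**Figure D1:**
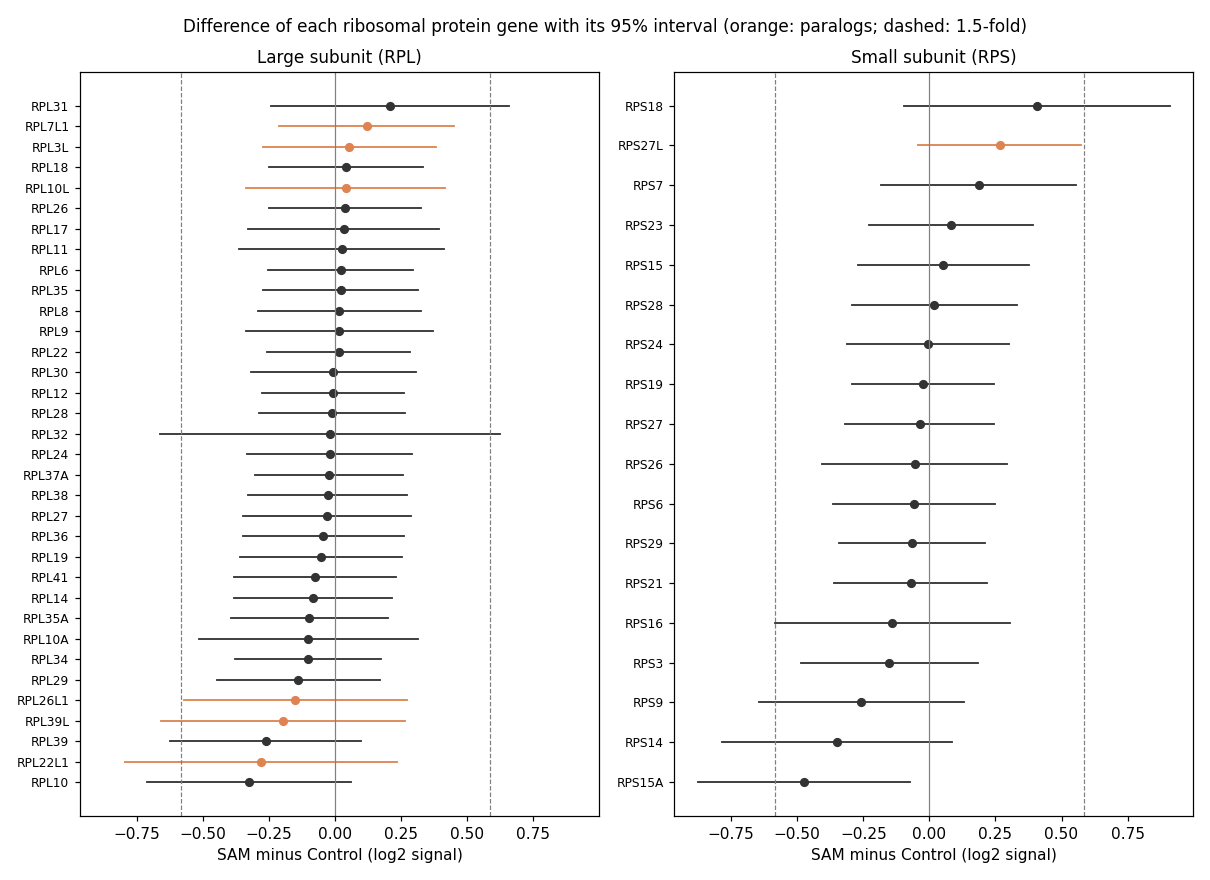
Log2 difference, SAM minus Control, of each of the 52 cytosolic ribosomal protein genes (points) with its 95% interval from limma (lines), for the large subunit on the left and the small subunit on the right; paralogs are orange and dashed lines mark a 1.5-fold change. All points lie between -0.47 and 0.41, and the interval of RPS15A is the one that leaves out 0.

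Single arrays differed by as much as the groups. The mean log2 signal over the members was 7.84, 7.78 and 7.80 in the Control arrays and 7.82, 7.66 and 7.82 in the SAM arrays, in the order of replicates 1 to 3. SAM replicate 2 stood below all others, and the other SAM arrays lay among the Control arrays. SAM replicate 2 had the lowest signal in 26 of the 52 members (50%) and the highest in none (0), whereas it was the lowest array in 21.8% of genes with a symbol. Control replicate 1 was the highest array in 21 members (40.4%), against 29.1% of genes with a symbol.

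The sign of the members' differences depended on these arrays and on the scaling. In 33 of the 52 the difference was negative, as in 8061 of 14884 genes with a symbol. But it was negative in 42 of the 52 with each array centred on its median and in 26 after a further quantile normalization or cyclic loess. Without SAM replicate 2 it was negative in 19, and the median difference was 0.02. No direction of the family as a whole was therefore read from these data.

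**Figure D2:**
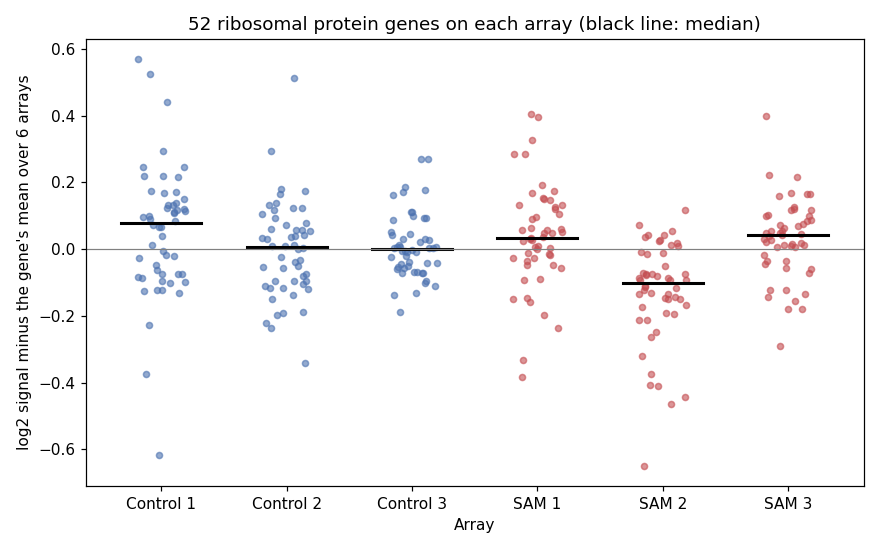
Log2 signal of each cytosolic ribosomal protein gene minus its own mean over the 6 arrays, by array, with Control in blue, SAM in red and the median as a black line. The points of SAM replicate 2 lie mostly below 0 (median -0.10), and those of Control replicate 1 mostly above (median 0.08).

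In the large subunit, leaving out paralogs, none (0) of 28 members had an unadjusted P under 0.05 in limma, and 22 of 28 differed by under 0.1 on the log2 scale. The median difference was -0.02, from -0.33 in RPL10 to 0.21 in RPL31. RPL10, which joins the large subunit late and lies next to the peptidyl transferase centre, had log2 signals of 10.92, 11.29 and 11.26 in the Control arrays and 10.61, 11.01 and 10.87 in the SAM arrays. The groups overlapped, because Control replicate 1 lay below SAM replicate 2. The difference was -0.33 (SE 0.17, n = 3 for each group), with an adjusted p of 0.658 in limma, and it was -0.22 without SAM replicate 1. With the replicate number as a block the unadjusted P of RPL10 in limma was 0.0485, and 2 of the 52 members instead of 1 were then under 0.05.

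At other named sites of the large subunit the differences ran from -0.26 in RPL39 to 0.21 in RPL31. RPL11, which forms a particle with 5S ribosomal RNA and can bind MDM2, differed by 0.02 (95% interval -0.36 to 0.41). Around the rim of the tunnel through which the new peptide leaves, 5 members (RPL19, RPL22, RPL26, RPL31 and RPL35) had differences of -0.05 to 0.21, and that of RPL31 was 0.06 without SAM replicate 1. RPL39, a short protein that lines this tunnel, had log2 signals of 7.88, 7.66 and 7.83 in Control and 7.33, 7.78 and 7.48 in SAM. SAM replicate 2 lay among the Control arrays and the other SAM arrays below them, and the difference was -0.26 (SE 0.16, adjusted p = 0.686 from limma), or -0.16 without SAM replicate 1. RPL12, the base of the stalk that recruits elongation factors, had the smallest SD within the groups of all 52 members, with 12.01, 12.04 and 11.96 in Control and 12.03, 11.95 and 12.01 in SAM.

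In the small subunit, RPS15A was the member with the most negative difference. Its log2 signals were 7.57, 7.17 and 6.98 in the Control arrays and 6.85, 6.74 and 6.71 in the SAM arrays. All SAM arrays lay below all Control arrays, which were spread more widely. The difference was -0.47 (SE 0.17, 95% interval -0.88 to -0.07, n = 3 arrays in each group), which is 1.39-fold lower, with an adjusted p of 0.601 from limma. Left out 1 at a time, the arrays gave differences of -0.60 to -0.31, with -0.31 without Control replicate 1.

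RPS15AP10, a pseudogene of RPS15A, was measured by a transcript cluster of its own. Its log2 signals were 5.20, 4.96 and 4.20 in Control and 4.08, 3.43 and 3.45 in SAM, a difference of -1.13 (SE 0.29, adjusted p = 0.565 from limma) that passed both thresholds. It no longer did so by the methods' t-test or without Control replicate 1, Control replicate 2, SAM replicate 2 or SAM replicate 3, where it was -0.92, -1.05, -1.02 and -1.03, and it was too dim for the filter on dim transcript clusters. Its arrays ran from high to low in nearly the order of those of RPS15A, with only SAM replicates 2 and 3 exchanged. The probes of near-identical copies can bind the RNA of both, and the share of either copy in the other's signal was not tested.

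Other small subunit genes differed less. RPS14, a protein of the subunit's platform whose gene is in the region deleted in the 5q- syndrome, had log2 signals of 6.89, 6.26 and 6.72 in Control and 6.40, 6.12 and 6.29 in SAM. Control replicate 2 lay below SAM replicates 1 and 3, so the groups overlapped. The difference was -0.35 (SE 0.19, adjusted p = 0.67 from limma), or -0.21 without Control replicate 1. RPS7, a protein of the body of the subunit, had 5.03, 4.79 and 5.29 in Control and 5.32, 5.17 and 5.17 in SAM, with Control replicate 3 among the SAM arrays and a difference of 0.19 (SE 0.16) that was 0.06 without Control replicate 2. RPS9, which lies near the site where mRNA enters, differed by -0.26 (SE 0.17), or -0.12 without SAM replicate 2. RPS3, at the same entry, differed by -0.15 (SE 0.14), or -0.08 without Control replicate 1 or SAM replicate 2. The differences of RPS23, RPS15 and RPS28 were 0.08 (SE 0.13), 0.05 (SE 0.14) and 0.02 (SE 0.13).

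RPS6, the ribosomal protein that S6 kinases phosphorylate, differed by -0.06 (95% interval -0.36 to 0.25). RPS19, the gene most often mutated in Diamond-Blackfan anaemia, had log2 signals of 10.30, 10.38 and 10.33 in Control and 10.33, 10.25 and 10.35 in SAM. The groups overlapped, with a difference of -0.02 and an interval of -0.29 to 0.24. Of a list of 14 genes of this anaemia, 10 were measured, and all 10 intervals lay within a 1.5-fold change. Over the 17 small subunit genes without paralogs the median difference was -0.06, and 0.00371 without SAM replicate 2.

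**Figure D3:**
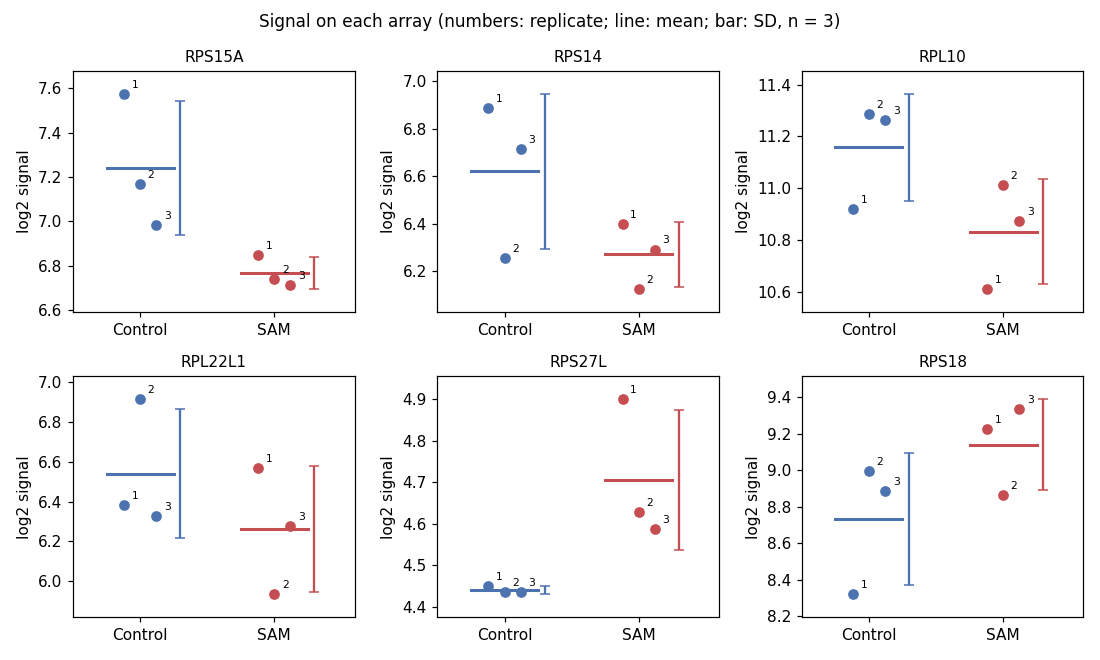
Log2 signal of 6 cytosolic ribosomal protein genes on each array, with Control in blue and SAM in red, the replicate number beside each point, the mean as a line and the SD as a bar (n = 3). In RPS15A and RPS27L the groups do not overlap, and in RPS14, RPL10, RPL22L1 and RPS18 they do.

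The highest difference in the family, 0.41 (SE 0.22, adjusted p = 0.669 from limma), belonged to RPS18, a protein of the small subunit's head. Its log2 signals were 8.32, 8.998 and 8.89 in Control and 9.23, 8.86 and 9.34 in SAM. SAM replicate 2 lay below both upper Control arrays, and without Control replicate 1 the difference was 0.20. A second transcript cluster annotated as RPS18 gave 7.29, 6.95 and 7.09 in Control and 7.31, 6.85 and 7.25 in SAM, a difference of 0.02 (SE 0.17). Its values were identical to those of another transcript cluster of the array.

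These clusters differ in where their identifiers stand. Identifiers on this array run in order along the chromosomes, and 97.8% of the transcript clusters with a symbol have most of their 10 nearest named neighbours on the gene's own chromosome. The brighter RPS18 cluster had 10 of 10 neighbours on chromosome 3 and the other one 10 of 10 on chromosome 6, where RPS18 lies. In the same way the clusters of RPS27, a gene of chromosome 1, and RPS28, a gene of chromosome 19, stood among genes of chromosomes 12 and 11. The clusters of RPL10, RPL12, RPL31 and RPL41 stood among genes of mixed chromosomes. In all, 7 of the 52 members did not stand among genes of their own chromosome, and for these the named gene may not be the only source of the signal, which was not tested. The other 45 had a median difference of -0.02, with none (0) past both thresholds.

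Of the members, 4 had several transcript clusters. RPL39 had a second cluster with a difference of 0.08 (SE 0.12), of opposite sign to the one used, and RPL19 one of -0.00546 (SE 0.12) beside -0.05. RPL41, which encodes the smallest ribosomal protein, had 5 clusters. The brightest differed by -0.08 (SE 0.13), and the one with 10 of 10 neighbours on its own chromosome by 0.04 (SE 0.16). In another the log2 signals were 8.23, 8.22 and 8.35 in Control and 7.67, 8.13 and 7.87 in SAM. There all SAM arrays lay below all Control arrays, with a difference of -0.37 (SE 0.15, adjusted p = 0.619 from limma), so that clusters annotated as the same gene did not give 1 value.

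Some paralogs replace their parent protein in some ribosomes or tissues, and 7 paralogs were measured. None (0) had an unadjusted P under 0.05 in limma. RPS27L, a paralog of RPS27 that p53 can induce in human cells, had log2 signals of 4.45, 4.43 and 4.43 in Control and 4.90, 4.63 and 4.59 in SAM. All SAM arrays lay above the Control arrays, which were almost equal. The difference was 0.27 (SE 0.13, 95% interval -0.04 to 0.58, adjusted p = 0.656 from limma), and 0.17 without SAM replicate 1. Its mean signal of 4.57 lay under the median of every array, and its signal in SAM replicate 1 above. Its parent RPS27, whose cluster stands among genes of chromosome 12, differed by -0.04 (SE 0.12). The difference between paralog and parent was not tested.

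RPL22L1, a paralog of RPL22, had log2 signals of 6.38, 6.91 and 6.33 in Control and 6.57, 5.93 and 6.28 in SAM. The SAM arrays spanned the lower Control arrays, and the difference of -0.28 (SE 0.22) was -0.09 without Control replicate 2. RPL22 differed by 0.01 (SE 0.12). RPL39L had 7.08 in Control replicate 1 and 6.32 to 6.57 in the other 5 arrays, and its difference of -0.20 (SE 0.20) was 0.01 without that array. RPL26L1 differed by -0.15 (SE 0.18), or 0.03 without SAM replicate 2, beside 0.04 (SE 0.12) in RPL26, and RPL7L1 by 0.12 (SE 0.14), or 0.00695 without SAM replicate 1. RPL10L, a paralog used in the testis, differed by 0.04 (SE 0.16) at a mean log2 signal of 3.95, under the median of every array, and RPL3L, a paralog of striated muscle, by 0.05 (SE 0.14).

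Members were also set side by side by their TOP tract, with no test. The 31 members with the tract had a median log2 difference of -0.04, from -0.35 to 0.41, and the 16 without it one of 0.02, from -0.15 to 0.27. Of those with an entry, the members with the most negative differences, RPS14, RPL10, RPL22L1, RPL39 and RPS9, carried the tract, as did RPS18 with the highest. Of the next highest, RPL31 (0.21) carried it, whereas RPS27L (0.27), RPS7 (0.19) and RPL7L1 (0.12) did not. Of all members with an entry, 31 of 47 (66.0%) carried it. The clusters used for RPL10, RPS18 and RPL31 did not stand among genes of their own chromosome. The RPS18 cluster that stood among genes of chromosome 6 differed by 0.02. How the medians by tract depend on single arrays was not tested. RPS15A, RPL39L and 3 other members had no entry among the promoters.

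Genes that build ribosomes are a group apart from the ribosomal proteins. Of 71 ribosome biogenesis factors, 43 were measured, and none (0) passed both thresholds. At an unadjusted P under 0.05 in limma, 1 was higher, NOLC1, a nucleolar chaperone, and none (0) lower, where 3.59% of all transcript clusters were higher. NOLC1 had log2 signals of 8.82, 8.93 and 8.90 in Control and 9.22, 9.15 and 9.16 in SAM, all SAM arrays above all Control arrays, with a difference of 0.29 (SE 0.12, adjusted p = 0.614 from limma). The difference was positive in 36 of the 43, against 6823 of 14884 genes with a symbol, with a median of 0.15 over the 43. Under the other scalings and with each array left out, the median was 0.08 to 0.24 and 33 to 40 of these genes were positive (35 of 42 with dimmer clusters left out). NIP7, NOP2 and HEATR3, factors of large subunit assembly or import, differed by 0.27, 0.36 and 0.32.

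Of 73 mitochondrial ribosomal protein genes, 51 had a positive difference, against 6823 of 14884 genes with a symbol. The median over the 73 was 0.07. This median was 0.00655, with 38 positive, without Control replicate 2. None (0) passed both thresholds, and at an unadjusted P under 0.05 in limma 3 were higher (MRPS2, MRPL15 and MRPS5) and MRPL54 lower. These are 4.11% and 1.37% of the list, against 3.59% and 4.4% of all transcript clusters. MRPS2 had log2 signals of 6.35, 6.50 and 6.59 in Control and 6.81, 6.85 and 6.95 in SAM, without overlap and with a difference of 0.39 (SE 0.13, adjusted p = 0.576 from limma).

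Of the 14884 genes with a symbol, 8061 had a negative difference. All 12 measured genes of 22 for mTORC1 and TOP mRNA control had one, with a median of -0.15. None (0) passed both thresholds or had an unadjusted P under 0.05 in limma, where 4.4% of all transcript clusters were lower at that P. After a further quantile normalization or cyclic loess 10 of the 12 were negative, and without Control replicate 3 it was 9. EEF2K, the kinase that inhibits elongation factor 2, had log2 signals of 6.99, 6.20 and 6.22 in Control and 5.997, 6.05 and 5.83 in SAM. The groups did not overlap, and Control replicate 1 was far above the other arrays. The difference was -0.51 (SE 0.22, adjusted p = 0.634 from limma), or -0.25 without that array. TSC1, a brake on mTORC1, differed by -0.25 (SE 0.13).

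Other genes with TOP transcripts gave single low or high values. Of 27 translation factors and related genes, 10 were measured, with a median difference of -0.05 and none (0) past both thresholds. The difference was negative in 6 of the 10, down to -0.36, and positive in 4, up to 0.29. EEF1D, a subunit of elongation factor 1, differed by 0.29 (SE 0.12, adjusted p = 0.624 from limma), and FAU, whose product is split into a ubiquitin-like protein and ribosomal protein S30, by 0.17 (SE 0.14), or 0.07 without SAM replicate 3. Of 13 host genes of small nucleolar and related RNAs, 8 were measured. The difference was positive in 4 and negative in 4, with a median of -0.01. SNHG5 had log2 signals of 6.99, 7.03 and 7.05 in Control and 6.48, 6.34 and 6.57 in SAM. All SAM arrays lay below all Control arrays by more than the spread within either group, with a difference of -0.56 (SE 0.12, adjusted p = 0.531 from limma), just under a 1.5-fold change. It passed both thresholds with each array centred on its median (-0.60) and without SAM replicate 3 (-0.61). ZFAS1 differed by -0.19, or -0.03 without SAM replicate 2.

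Ribosomal proteins that are not built into ribosomes can bind MDM2 and stabilise p53. Of 13 genes of this checkpoint, 8 were measured, none (0) with an unadjusted P under 0.05 in limma. MDM4 differed by -0.42 (SE 0.20) and SESN2 by -0.58 (SE 0.31), where Control replicate 2 was at 7.47 and the other 5 arrays at 6.03 to 6.37. Without that array MDM4 differed by -0.23 and SESN2 by -0.18. Of 25 ribosomal protein pseudogenes, 1 passed both thresholds (RPS15AP10, lower), which is 4% of them against 1.09% of all transcript clusters. Their differences were spread more widely (SD 0.33) than those of the 52 genes (SD 0.15), at a median log2 signal of 5.04 against 7.13.

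**Figure D4:**
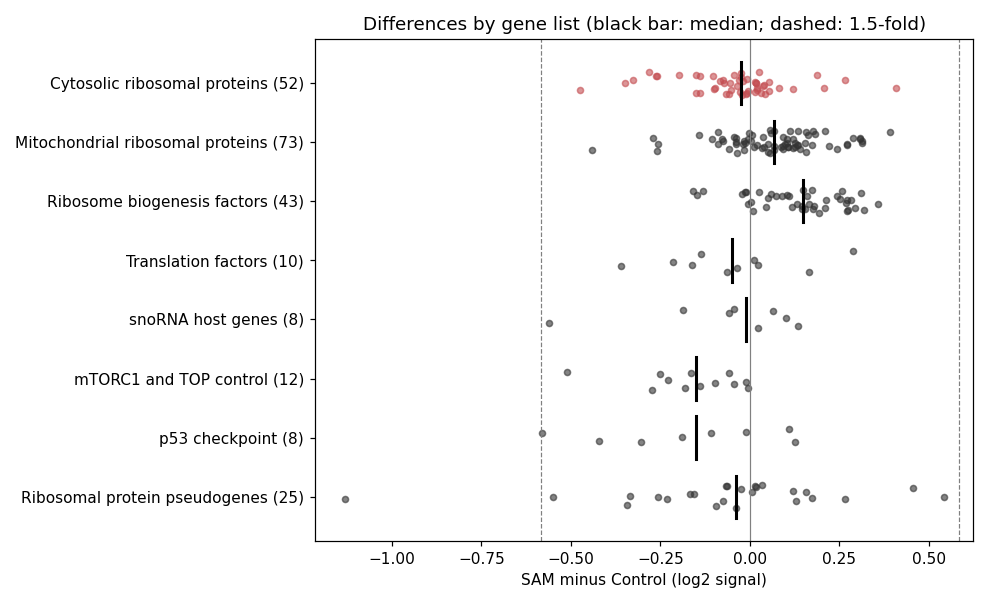
Log2 difference, SAM minus Control, of each gene (points) in the cytosolic ribosomal proteins (red) and 7 related lists, with the median of each as a black bar, the number of measured genes in parentheses and a 1.5-fold change as dashed lines. The medians are -0.02 for cytosolic ribosomal proteins, 0.07 for mitochondrial ones and 0.15 for biogenesis factors, and RPS15AP10 is the only point beyond the dashed lines.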

How the data were processed

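RNA of 6 cultures was hybridised to Affymetrix Human Gene 2.0 ST arrays. The deposited values are log2 signals that the authors computed with RMA in the Bioconductor package oligo (version not given in the sources used here), so they are background-corrected, quantile-normalized and summarized per transcript cluster, with no filter stated. All 53617 transcript clusters entered 1 limma fit (lmFit, then eBayes; version 3.58.1, R 4.3.3) of SAM against Control without a block, with Benjamini-Hochberg adjustment across them. Symbols came from the platform annotation (16098 transcript clusters with 1 symbol, none with several, 37519 with none), and promoters and chromosomes from RefSeq GRCh38.p14, matched by gene ID for 47 of the 52 members. The members and lists were chosen with earlier results of these data known. Named genes are the 8 members with the largest positive and the 8 with the largest negative difference, the 5 brightest and 5 dimmest, paralogs with their parents, members of a described role, and the called genes and up to 4 with the smallest P of each list; RPS24 is outside this rule. Precision is limited by the small number of arrays. The fit was tested on simulated data. Alternatives were a filter on dim clusters, named clusters only, 3 rescalings, a trended robust fit, a Student's t-test and the replicate block. For the arrays the study's methods name limma and no t-test. Further alternatives were other thresholds, other clusters of a gene and each array left out.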

Additional observations from a re-analysis of the deposited data

How the results depend on the processing

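No member (0 of 52) passed both thresholds under the rescalings, filters, trended robust fit, Student's t-test or other clusters of a gene. Nor did any with a 2-fold minimum, no fold change minimum or any array left out. None (0) reached an adjusted p under 0.05. At P under 0.05 alone 1 member passed (RPS15A). With the replicate block 0 members passed, and 659 of all transcript clusters did, beside 582 without it. It put 2 members under an unadjusted P of 0.05 instead of 1. The median member difference was -0.02 with or without the block. Same-numbered arrays had deviations correlated by -0.00267, -0.0748 and 0.109, and arrays of different numbers by -0.139 to 0.112. With 3 arrays in each group these values cannot show whether same-numbered cultures were paired. The main fit has no block because the study's array methods name none. The Student's t-test called 188 transcript clusters at the same thresholds and 0 after Benjamini-Hochberg adjustment. P under 0.01 alone called 921 and a 2-fold minimum 143. With dimmer ones left out 359 of 26809 passed, among those with a symbol 165 of 16098, and without Control replicate 2 it was 934. The number of the 52 members whose groups did not overlap was 1 with dimmer transcript clusters left out, beside 18.5% of the transcript clusters kept. It was 4 after a further quantile normalization and 4 after cyclic loess, each beside 15.3% of all transcript clusters. With 1 array left out it was 4 to 10, beside 23.3% to 27.6% of all transcript clusters. The median difference was -0.05 to 0.02 with 1 array left out. RPL39 was 0.0799 in its dimmer transcript cluster. With 1 array left out RPL39L was -0.31 to 0.0145, RPL3L -0.0415 to 0.14 and RPS15 -0.0163 to 0.13. Of 303 values of 16 named members, 298 kept their sign and their side of the thresholds. These 16 are the members with the largest differences in either direction. Many of the values could not change sign, because the filters, other fits, the block and other thresholds leave the difference itself as it was. The exceptions are the values just given for RPL39, RPL39L, RPL3L and RPS15, and RPS15A at P under 0.05. The cause was not tested. Keeping the 45 members that stand among genes of their own chromosome was chosen after seeing the data and gave 0 called and a median of -0.02.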
